A study of Caenorhabditis elegans with 4 samples.

Results

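Chromosome III of Caenorhabditis elegans carried 943 of the 3766 peaks (25.04%) that the authors deposited in a combined list for a GFP-tagged homeodomain transcription factor. The members are all rows of that list with III in the chromosome column, and they were set beside the peaks on III of each replicate's own list, 755 of 2778 in ChIP replicate 1 and 250 of 906 in ChIP replicate 2. The peaks come from chromatin immunoprecipitation with sequencing (ChIP-seq), in which DNA bound to a protein is collected with an antibody and sequenced. The animals were L4 hermaphrodites, the fourth larval stage, of strain OP241, grown at 20 °C. The strain carries the unc119(ed3) mutation and the transgene wgIs241, a copy of ceh-38 tagged with TY1, EGFP and FLAG together with unc119, put in by bombardment and outcrossed 3 times. All 4 samples, 2 ChIP and 2 input, share this genotype, so there is no untagged or wild-type group. The sample titles name the factor CEH-28 whereas strain and genotype name ceh-38, and the protein is therefore called the tagged factor here. Samples were grouped by title, because their descriptions list the antibody under input and input DNA under ChIP. No peak list of an input sample was used here, so the peaks have no control values beside them.

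CEH-38 belongs to the ONECUT family, transcription factors that bind DNA through a cut domain and a homeodomain, whereas CEH-28 is an NK-2 type homeodomain protein. Peaks of such factors mark stretches of the genome that the factor contacts directly or through other proteins. Chromosome III is an autosome. The autosomes of this nematode have gene-dense central regions with little recombination, and arms on both sides with more recombination and more repeated sequence. In the RefSeq gene table of assembly WBcel235, unc-119 lies on III, ceh-38 on II and ceh-28 on X. The files use build WS180, so no peak was assigned to a gene and no sequence is printed.

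A peak is described by its start, its end and its q-value, which is the p-value of the authors' peak caller PeakSeq after correction for multiple testing. A small q-value says that a region stood out clearly from the control, and it falls with sequencing depth as well as with enrichment. Peaks are therefore ranked within a list, and place 1 is the smallest q-value of the whole list. On III the q-values of the combined list ran from 2.96e-323 to 4.39e-04, with a median of 1.84e-07. The lists give no read counts, so the depth behind a peak is unknown. The 943 peaks covered 397 kb, which is 2.88% of a span of 13.8 Mb from base 1 to the end of the last peak on III in any list, against 1.67% of the spans of the other chromosomes.

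Most peaks on III were seen in replicate 1 alone or in no replicate list, and a wide, well-ranked minority was seen in both. Of the 943 peaks, 215 overlapped a peak of both replicates by at least 1 bp (22.8%, 95% Wilson interval 20.2 to 25.6%; 21.2% of the whole combined list). A further 451 overlapped replicate 1 alone (47.8%, 44.7 to 51.02%; 45.6% of the whole list). There were 6 that overlapped replicate 2 alone (0.636%, 0.292 to 1.38%; 0.345% of the whole list). The remaining 271 overlapped neither (28.7%, 25.9 to 31.7%; 32.9% of the whole list). The peaks found in both were the wide and well-ranked ones, with median values of 719 bp in width and 2.31e-28 in q. For those found in replicate 1 alone the medians were 282 bp and 9.59e-08, and for those found in neither 186 bp and 5.19e-05. Peaks found in both made up 48.1% of the bases covered on III, and those found in neither 13.5%. A wide peak meets an overlap of 1 bp more easily, and the combined list belongs to the same samples as the replicate lists. Width, rank and replicate support are therefore not independent of each other.

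III was set against the other 5 chromosomes for 4 shares by two-sided Fisher's exact tests, with Benjamini-Hochberg adjustment over 6 comparisons. The share found in neither replicate was lower on III, 28.7% against 34.3% (967 of 2823; Fisher's exact test, adjusted p = 0.00268). The share found in both, 22.8% against 20.7% (583 of 2823), did not pass the test (Fisher's exact test, adjusted p = 0.167). The lower share in neither missed the threshold with the better 50% of each list (28.5% against 30.1%, Fisher's exact test, adjusted p = 0.531) and when replicate 1 was left out (adjusted p = 0.131). The share in both passed the test when replicate 2 was left out, so that overlap with replicate 1 sufficed (70.6% against 65.5%, Fisher's exact test, adjusted p = 0.00483). It also passed when neighbouring peaks were joined (29.8% against 24.2%, Fisher's exact test, adjusted p = 0.0105). A joined region includes the gaps between its peaks and can meet replicate peaks lying in them. III had 1.71 peaks per joined region against 1.25 to 1.61 elsewhere, so that call cannot be told apart from peak density. These tests take peaks as units although neighbouring peaks are not independent, which makes each p-value too small and each interval too narrow. The labels do not say that the 2 ChIP samples came from separate cultures.

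Of the 755 replicate 1 peaks on III, 221 were found in replicate 2 (29.3%, 26.1 to 32.6%; 29.6% of the whole replicate 1 list). Conversely, replicate 1 contained 231 of the 250 replicate 2 peaks on III (92.4%, 88.4 to 95.1%; 94.7% of the whole replicate 2 list). Both shares were near those of the whole lists.

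Replicate support on III followed the place of a peak in the combined list. The 2 are not independent, because the combined list belongs to the same samples as the replicate lists. All 28 peaks on III among places 1 to 100 were found in both replicates (100%, 87.9 to 100%). At places 101 to 500 it was 99 of 102 (97.1%, 91.7 to 99.0%), and at places 501 to 1000 it was 59 of 127 (46.5%, 38.01 to 55.1%). At places 1001 to 1883 the share had dropped to 26 of 249 (10.4%, 7.23 to 14.9%). Of the 211 peaks at places 2801 to 3766, 0 were found in both, which allows a share of up to 1.79%, and 148 were found in neither (70.1%, against 77.6% elsewhere at these places). The other chromosomes had shares inside these intervals at places 1 to 1000, with 98.6%, 96.3% and 47.5%. At places 1001 to 1883 they had 7.10%, just below the interval of III.

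**Figure D1:**
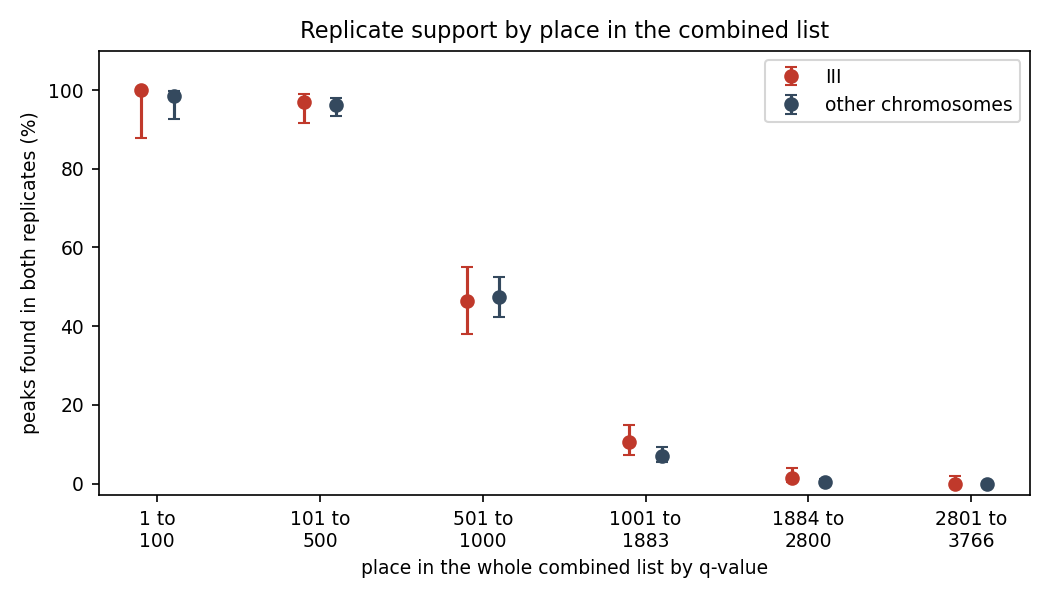
Share of combined-list peaks found in both replicates (vertical axis, %) by place in the whole combined list (horizontal axis, 6 classes), for III and for the other chromosomes together; points are shares and bars are 95% Wilson intervals over peaks. On III the share falls from 100% at places 1 to 100 to 46.5% at places 501 to 1000 and 0% at places 2801 to 3766.

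Peaks on III were in the better-ranked part of the list more often than those of the other chromosomes together, whereas in its first 25% the shares were nearly equal. Chromosome I ranked better than III, with a median q of 3.33e-08 against 1.84e-07. Medians on II, IV, V and X were larger, from 6.07e-07 to 3.04e-06. Among the 500 best were 141 of the 741 peaks on I and 130 of the 943 on III. In the first 50% of the combined list, places 1 to 1883, were 506 of the 943 peaks (53.7%, 50.5 to 56.8%; 50% of the whole list by construction), against 48.8% on the other chromosomes (1377 of 2823; Fisher's exact test, adjusted p = 0.0126). In the first 25% of the list the shares were 24.8% on III and 25.04% elsewhere, the opposite direction (Fisher's exact test, adjusted p = 0.896). The difference also missed the threshold in each replicate's own list, with 50.9% against 49.7% in replicate 1 and 51.2% against 49.5% in replicate 2 (Fisher's exact tests, adjusted p = 0.609 and 0.710), and with peaks under 5 kb apart joined (53.7% against 48.9%, adjusted p = 0.0577). Of the 100 best combined-list peaks 28 lay on III, a share close to the 25.04% of all peaks that lie there. Among the 100 best peaks III had 32 in replicate 1, where 27.2% of all peaks lay on III. It had 33 in replicate 2, where 27.6% of all peaks lay on III.

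Peaks on III were narrower than those elsewhere. The median width in the combined list was 287 bp on III (quartiles 193 and 495 bp) and 358 bp on the other chromosomes together (245 and 602 bp). Taken singly, the others ranged from 313 bp on V to 445.5 bp on X. Of the peaks on III, 564 (59.8%, 56.6 to 62.9%; 50% of the whole list by construction) were narrower than the list median of 340 bp, against 1318 of the other 2823 (46.7%; Fisher's exact test, adjusted p = 1.85e-11). On the other autosomes alone, without X, 1187 of 2413 were narrower (49.2%; Fisher's exact test, adjusted p = 1.81e-07). The difference passed the test within each support class, alternatives chosen after seeing the data: 56.3% against 47.7% among peaks found in both (Fisher's exact test, adjusted p = 0.0455), 66.1% against 44.2% in replicate 1 alone (adjusted p = 7.55e-15) and 70.8% against 43.8% in neither (adjusted p = 1.40e-14), each against the median width of the class. It also passed in the list of replicate 1 (61.9% against 45.4%, Fisher's exact test, adjusted p = 7.95e-14) and of replicate 2 (56.4% against 47.6%, adjusted p = 0.0253). In replicate 1 the median width was 288 bp on III and 328 bp or more on every other chromosome. In replicate 2 it was 421.5 bp on III, and IV was narrower with 405 bp. With peaks under 5 kb apart joined into 1 region, the shares were 50.3% and 49.9% and the call was lost (Fisher's exact test, adjusted p = 0.885). The width of a joined region includes the gaps between its peaks. III had the largest share of peaks with a neighbour within 5 kb (63.3%, against 34.4 to 58.3% elsewhere), so this setting does not test peak width.

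The narrowest peaks of all were more frequent on III than on the other chromosomes together. Of the 82 combined-list peaks under 50 bp, 34 lay on III, which is 3.61% of the peaks there against 1.70% elsewhere. Chromosome I came nearest with 21 of 741 peaks, and X had the smallest share with 2 of 410. None of the 34 was found in both replicates, 5 were found in replicate 1 alone and 29 in neither. The support of the 48 such peaks elsewhere is not given here, so these counts are not shown to be particular to III. In the classes of places from 501 to 3766 the median width on III was the smallest of the 6 chromosomes, for example 161 bp against 219 bp on the others together at places 2801 to 3766. Among the 100 best peaks the median was 1500 bp on III, and X with 1210 bp was below it.

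**Figure D2:**
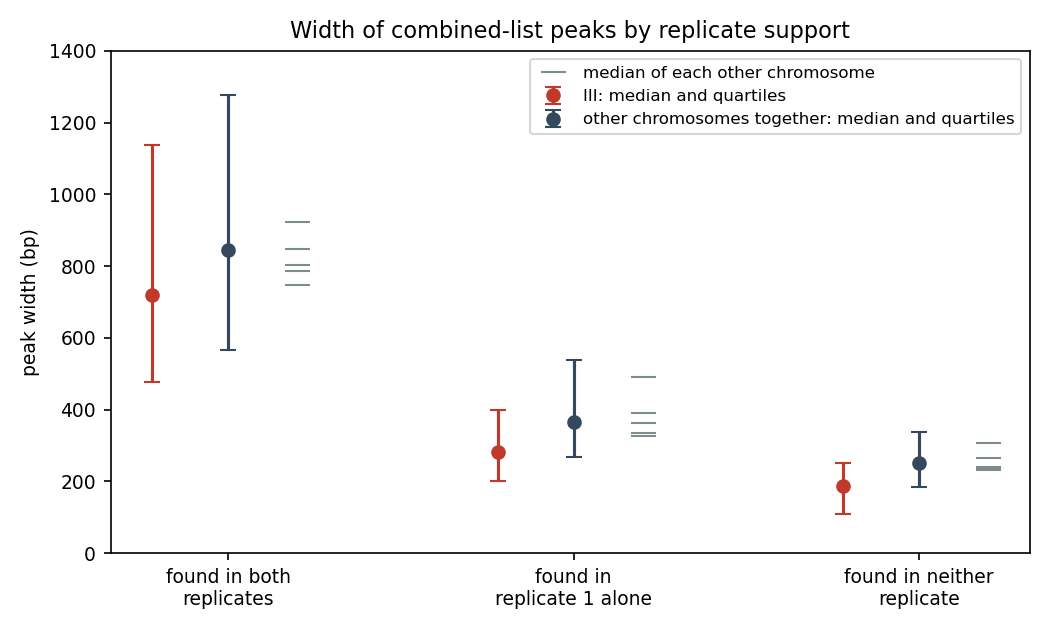
Width of combined-list peaks (vertical axis, bp) by replicate support (horizontal axis). Points with bars are medians and quartiles for III and for the other chromosomes together, and short lines are the median of each other chromosome. In each of the 3 classes the median of III, 719, 282 and 186 bp, lies below that of each other chromosome.

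Along III the peaks were most crowded in the left part of the chromosome and sparsest in the middle. The span was cut into 20 equal parts of 688 kb, in which even placement would give 47.2 peaks each. The fullest part, from 20 to 25% of the span (2.75 to 3.44 Mb), held 81 combined-list peaks, 62 in replicate 1 and 26 in replicate 2. The part from 10 to 15% (1.38 to 2.06 Mb) came next with 70, and it was the fullest of both replicates' own lists, with 65 and 43. The emptiest part, from 45 to 50% (6.19 to 6.88 Mb), held 28 combined-list peaks, 18 in replicate 1 and 3 in replicate 2. Replicate 2 held equally few, 3, in the part from 85 to 90%. On the right side the fullest part of the combined list, from 90 to 95%, held 62, 48 and 17, whereas in both replicates' own lists it was the part from 80 to 85%, with 59, 54 and 19. The 2 crowded parts on the left differed in make-up. From 10 to 15%, 34 of 70 peaks were found in both replicates (48.6%, 37.2 to 60.0%) and 30 were among the 500 best of the list. From 20 to 25%, 19 of 81 were found in both (23.5%, 15.6 to 33.8%), 27 in neither, and 12 were among the 500 best. That difference was not tested.

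**Figure D3:**
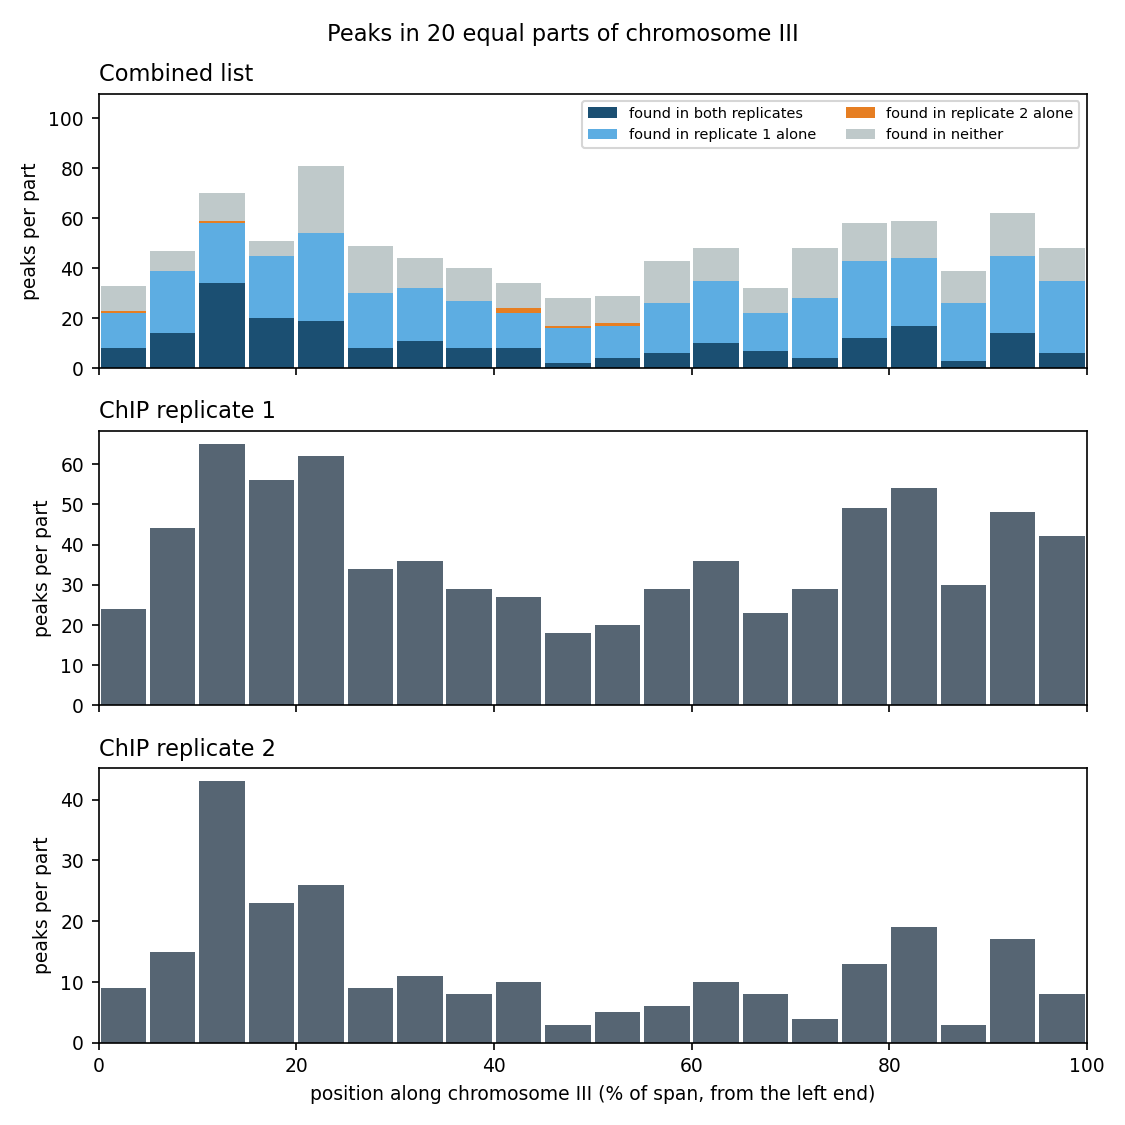
Number of peaks (vertical axis) in each of 20 equal parts of III (horizontal axis, position in % of the span from the left end) in the combined list, stacked by replicate support, and in each ChIP replicate. The part from 10 to 15% is the fullest of replicate 1 with 65 peaks and of replicate 2 with 43, whereas the part from 20 to 25% is the fullest of the combined list with 81.

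The share of peaks found in both replicates was highest in the left outer 25% of III, and the right outer 25% was close to the centre. The outer parts, 25% of the span at either end, held 548 combined-list peaks, and 147 of these were found in both replicates (26.8%, 23.3 to 30.7%). The central 50% held 395, of which 68 were found in both (17.2%, 13.8 to 21.2%; Fisher's exact test, adjusted p = 0.00105). The left outer part, up to 3.44 Mb, had 95 of 282 (33.7%, 28.4 to 39.4%) and the right outer part, from 10.3 Mb on, 52 of 266 (19.5%, 15.2 to 24.7%; Fisher's exact test, adjusted p = 7.02e-04). Within the left outer part the share was 24.2% in the first 5% of the span and 48.6% from 10 to 15%. On the right it reached 28.8% from 80 to 85%. The left excess was lost when replicate 2 was left out, with 77.3% of left and 72.6% of right peaks found in replicate 1 (Fisher's exact test, adjusted p = 0.202). The right outer part against the centre, 19.5% against 17.2% with overlapping intervals, was not tested, so the difference between the outer parts together and the centre cannot be ascribed to both ends. The number of combined-list peaks at the 2 ends, 282 and 266, was nearer to equal than in replicate 2, which had 116 on the left and 60 on the right, and replicate 1 had 251 and 223. Ranking was unequal too: the left outer part held 23 of the 28 peaks on III among the 100 best, the right held 5 and the centre 0. Among the 500 best, 71 lay in the left outer part, 30 in the right and 29 in the centre. The median q was 1.78e-09 on the left, 2.59e-07 on the right and 1.93e-06 in the centre. Because q and replicate support move together, these rankings are not independent of the shares found in both. Median widths in the left, right and central zones were 279.5, 289.5 and 298 bp.

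Peaks on III often had a near neighbour. The median gap between neighbouring peaks was 7135 bp (quartiles 1986.75 and 20002.5 bp), the smallest gap was 200 bp, and 146 of 942 gaps were under 1 kb. Of the 943 peaks, 597 had another within 5 kb (63.3%), and the other chromosomes ranged from 34.4% on X to 58.3% on I. Gaps shorten as peaks become denser, so this order is no measure of clustering beyond density. Peaks found in both replicates had a neighbour within 5 kb in 155 of 215 cases (72.1%, 65.7 to 77.7%), against 276 of 451 found in replicate 1 alone (61.2%, 56.6 to 65.6%) and 161 of 271 found in neither (59.4%, 53.5 to 65.1%). After joining of peaks less than 5 kb from each other, III had 553 regions. Single peaks made up 346 of them, 161 held 2 to 3 peaks and 46 held 4 or more. At least 1 peak found in both replicates was present in 60 of the 346 single peaks (17.3%), 63 of the 161 regions of 2 to 3 peaks (39.1%) and 40 of the 46 larger regions (87.0%, 74.3 to 93.9%). A region with more peaks has more chances to hold such a peak.

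The richest regions of III differed in place and replicate support. The region with the most peaks lay near the middle of III, at 7723022 to 7738218, with 11 peaks in 15197 bp. Its best peaks were only moderately ranked, at 7728379 to 7730029 (place 407, q = 1.91e-29, with 4.27e-17 in replicate 1 and 1.79e-05 in replicate 2) and at 7723022 to 7725099 (place 448). Of its 11 peaks, 3 were found in both replicates, 3 in replicate 1 alone and 5 in neither. The second lay in the right outer part, at 11267443 to 11292663, with 10 peaks in 25221 bp, of which 3 were found in both. Its best peak, at 11286177 to 11289024, had q = 9.04e-155 in the combined list, 1.07e-93 in replicate 1 and 3.72e-33 in replicate 2. Next came 5 regions tied at 7 peaks. Of these the one with the smallest q-value, at 1875932 to 1894416 in the left outer part, held its 7 peaks in 18485 bp, and 6 of them were found in both replicates. The other tied regions began at 1206273, 3307662, 3387538 and 1418640, and 3, 2, 0 and 2 of their peaks were found in both. Their best q-values were 3.39e-113, 3.33e-59, 3.27e-22 and 9.69e-22. The 6 peaks of the first tied region that were found in both stood at places 8, 32, 35, 71, 148 and 285 of the combined list, and 3 of them are among the 15 best regions of III described next.

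The 15 best-ranked regions of III that were found in both replicates lay in its outer parts, 11 in the left, 4 in the right and 0 in the centre. Between 10 and 15% of the span alone there were 7. They were 918 to 3456 bp wide (median 1845 bp) and held places 1 to 45 of the combined list, 11 to 63 of replicate 1 and 28 to 118 of replicate 2. All 15 had a smaller q in replicate 1 than in replicate 2, and a smaller q still in the combined list. A neighbouring peak stood within 1 kb of 9 of them.

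The leading regions kept small q-values in all 3 lists, though not in the same order. The first, at 1467863 to 1469361, had q = 2.96e-323 in the combined list, 3.71e-227 in replicate 1 and 5.70e-97 in replicate 2. The second, at 11220744 to 11223829, was the only one of the leading 5 in the right outer part and had q = 1.87e-304, 2.10e-242 and 1.71e-98. The third, at 2383923 to 2386177, had q = 2.39e-287, 2.21e-230 and 3.56e-89. In replicate 1 and in replicate 2 the second region therefore stood ahead of the first. The fourth, at 1877499 to 1880954, had q = 1.48e-260 in the combined list and spanned 3 peaks of each replicate, of which the best had q = 3.82e-158 in replicate 1 and 1.97e-32 in replicate 2. The fifth, at 2993481 to 2995883, had q = 4.98e-248, 5.98e-194 and 3.70e-62. The seventh, at 1580087 to 1581004, was the narrowest of the 15 at 918 bp and had the best place of them in replicate 2, 28, with q = 6.38e-117. It stood at place 16 in the combined list (q = 3.72e-244) and at place 20 in replicate 1 (q = 4.67e-208). The remaining regions of the 15 began at 11068366, 2477485, 12792768, 1875932, 1892916, 10860373, 2006888, 1056726 and 1955105, with combined-list q-values from 3.39e-244 to 2.54e-178.

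Several of the strongest replicate peaks on III had no counterpart in the combined list. The 4 best replicate 1 peaks on III were at 12951241 to 12953243 (place 1, q = 1.31e-320), 11613996 to 11615593 (place 7, q = 1.56e-272), 3240390 to 3242898 (place 8, q = 1.63e-263) and 2111987 to 2113245 (place 9, q = 8.74e-255). None of these 4 overlapped a combined-list peak. All 4 were present in replicate 2, at places 17, 29, 36 and 27, with q-values of 5.92e-149, 2.12e-115, 9.19e-98 and 3.69e-117. By replicate ranking they are thus among the strongest regions of III, and the 15 regions above do not include them. The next replicate 1 peak on III absent from the combined list, at 1184581 to 1184763, stood at place 1450 (q = 9.16e-07) and was not in replicate 2. In total 79 of the 755 replicate 1 peaks on III were absent from the combined list (10.5%, 8.48 to 12.9%; 7.96% of the whole replicate 1 list), against 142 of 2023 elsewhere (7.02%, 5.99 to 8.22%), a difference that was not tested. On III these were 4 of 17 among places 1 to 50, 0 of 92 at places 51 to 400 and 75 of 646 beyond. Elsewhere 7 of 33 were absent among places 1 to 50, 0 of 258 at places 51 to 400 and 135 of 1732 beyond.

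Most of the absent replicate 2 peaks were among the best of that list, on III as elsewhere. Of its 16 peaks on III among places 1 to 50, 11 had no counterpart in the combined list (68.8%, 44.4 to 85.8%), against 1 of 103 at places 51 to 400 (0.971%, 0.172 to 5.30%) and 3 of 131 beyond. On the other chromosomes 23 of 34 were absent at places 1 to 50 (67.6%, 50.8 to 80.9%), nearly the same share. All 16 of the replicate 2 peaks on III at places 1 to 50 lay in the outer parts, those with a combined-list counterpart as well as the 11 without. Of the 11, 8 lay on the left and 3 on the right, and they were 1236 to 3563 bp wide. Besides the 4 shared with replicate 1, 7 were in replicate 2 only. The best 5 of these were at 1804855 to 1808417 (place 3, q = 2.28e-219), 12409823 to 12412426 (place 6, q = 8.37e-210), 2835628 to 2838590 (place 11, q = 5.09e-168), 2281669 to 2284050 (place 12, q = 1.13e-165) and 1583039 to 1585024 (place 14, q = 3.86e-160). A combined-list peak lay within 5 kb of 7 of the 11, and the gap to the nearest ran from 427 to 15332 bp. Over all places, 15 of the 250 replicate 2 peaks on III (6.00%, 3.67 to 9.66%; 4.75% of the whole replicate 2 list) and 28 of the 656 elsewhere were absent from the combined list, and the cause was not tested.

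**Figure D4:**
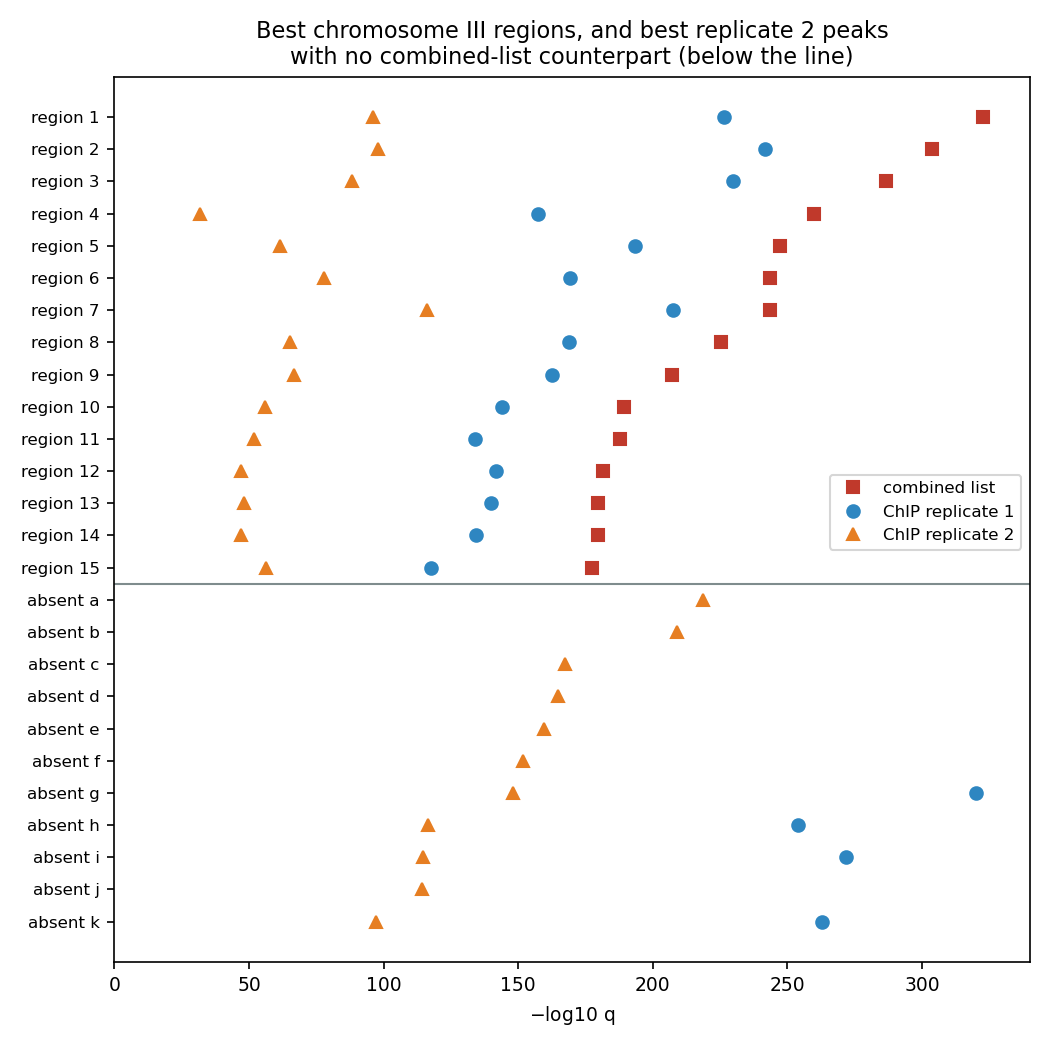
The −log10 q (horizontal axis, larger for smaller q-values) in the combined list, ChIP replicate 1 and ChIP replicate 2 for the 15 best chromosome III regions found in both replicates, and below the line for the 11 replicate 2 peaks among its 50 best that have no combined-list counterpart (lettered a to k in order of q). Of these 11, 4 have a replicate 1 value, between 254 and 320, above each replicate 1 value of the 15 regions.

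Among the regions of III matched in all 3 lists, q-values ran together and those of replicate 2 were larger. One peak of each list matched one to one at 192 of the 215 regions. In the combined list their −log10 q had a median of 26.0, with 19.2 for replicate 1 and 6.94 for replicate 2. Divided by its replicate 1 value, the replicate 2 value of a region was 0.413 at the median, with quartiles of 0.344 and 0.503. Only 4 of the 192 regions had the smaller q in replicate 2. Spearman's rho between the replicates was 0.888 over these 192 peaks, a description only, since the peaks share the same 2 libraries and regions absent from a list are left out. The combined list had the smallest q in 184 of the 192 regions. Peak centres of the replicates lay a median of 49.75 bp apart, and within 200 bp in 179 of 192. The combined-list peak was the wider one in 142 of 192 when set against replicate 1, with medians of 670.5 and 601.5 bp, and the replicate 2 peak was narrower than that of replicate 1 in 166, with a median of 391 bp.

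**Figure D5:**
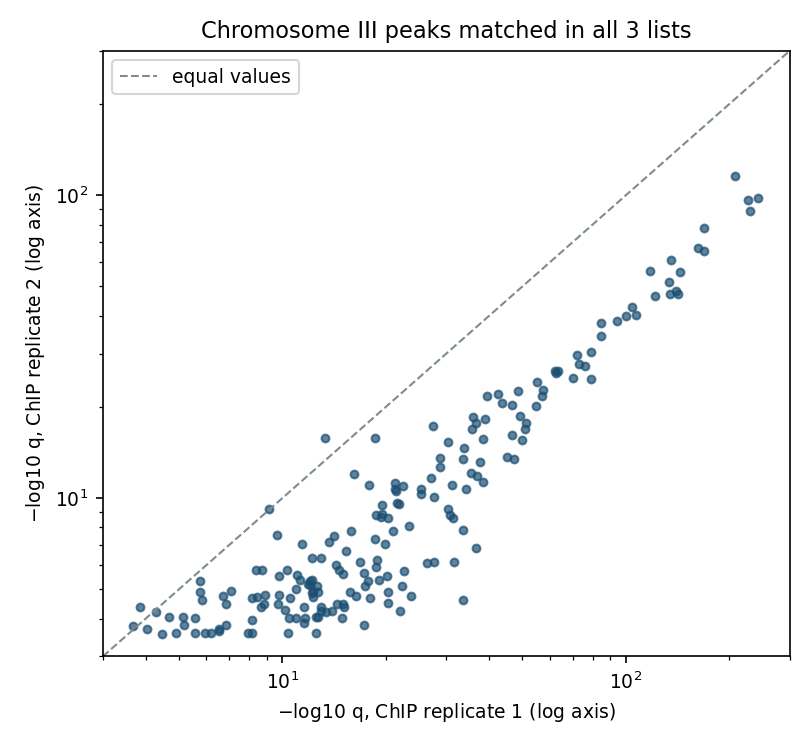
The −log10 q in ChIP replicate 1 (horizontal, log axis) and ChIP replicate 2 (vertical, log axis) of the 192 chromosome III regions matched one to one in all 3 lists; each point is a region and the dashed line marks equal values. Nearly all points lie below the line, with 4 above it, and the median ratio is 0.413.

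Of the 5 widest peaks of III, 2 were among its best ranked and the widest was not. The widest, at 13462147 to 13467090 near the right end, was 4944 bp wide with q = 1.81e-83 (place 131). It spanned 3 peaks of each replicate, of which the best had q = 6.02e-31 in replicate 1 and 2.28e-13 in replicate 2. The fourth and the second of the 15 best regions, with 3456 and 3086 bp, were next but for a peak of 3110 bp at 833064 to 836173 (place 282, q = 3.38e-44), whose replicate 2 peak was only 535 bp wide (q = 1.39e-07). The fifth widest, at 11286177 to 11289024 with 2848 bp, belongs to the region of 10 peaks described above. In all, 13 combined-list peaks on III spanned more than 1 replicate 1 peak, whereas 5 replicate 1 peaks and 0 replicate 2 peaks were split over more than 1 combined-list peak.

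Peaks without full replicate support reached moderate ranks at most, with 1 exception. The best peak found in replicate 1 alone, at 1610753 to 1611298, had place 404 (q = 1.72e-29, and 2.69e-27 in replicate 1). The best peak found in neither, at 9457180 to 9457941, had place 1079 (q = 1.88e-11). The exception was found in replicate 2 alone, at 2015347 to 2016089, with place 137 (q = 4.19e-82, and 6.26e-24 in replicate 2). It lay 427 bp from the replicate 2 peak at 2012298 to 2014919 (q = 3.66e-115), which neither other list holds. The other 5 peaks found in replicate 2 alone had places from 1283 to 2801. A replicate without a peak at a region is not shown to lack binding there, since the read depth is unknown.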

How the data were processed

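Peak lists of 2 ChIP samples and a combined list were analysed. The series also holds 2 input samples, of which no data were used here. Per the labels' protocols, worms were fixed in formaldehyde (2%), and the tagged factor was collected from sonicated chromatin with antibodies against GFP. Per the file headers, the authors called peaks with PeakSeq on build WS180, and the deposited lists give a q-value as their single measurement. The sources used here do not give the aligner, the filters, the read depth or how the combined list was made.

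Values of −log10 q were computed from the deposited text. Overlap of at least 1 bp counted as shared. Intervals are 95% Wilson intervals over peaks and cover counting error only. The 6 share comparisons used two-sided Fisher's exact tests with Benjamini-Hochberg adjustment and a threshold of 0.05. Alternatives were adjusted with the other 5 comparisons at their reported values. Scripts ran in Python 3.11.15 with SciPy 1.17.1 and matplotlib 3.10.9. The overlap code was tested on simulated lists and checked against bedtools 2.31.1.

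Regions were named by rule: the 15 best found in both replicates, the 5 widest, the 3 joined regions with the most peaks (ties by smallest q), up to 5 best replicate peaks absent from the combined list, the best of each other support class and the 3 longest empty stretches. Members, lists and rules were chosen with earlier results of these data known. No genome of build WS180 was used here.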

Additional observations from a re-analysis of the deposited data

How the results depend on the processing

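Of 45 alternatives to the 6 tested shares, 35 left direction and call as they were, 7 lost the call, 2 gained it and 1 reversed. These are not 45 separate checks. With 1 replicate left out, the shares found in both and in neither are complements, so the same comparison is counted under each. Values are differences in percentage points, III minus the other chromosomes unless named. With peaks under 5 kb apart joined, the share found in both replicates gained the call (5.59), and the shares in the better-ranked 50% (4.80, Fisher's exact test, adjusted p = 0.0577) and of narrow peaks (0.375) lost it. Joined regions include the gaps between peaks, and III had the most peaks per region. The calls for both and for narrow peaks after joining therefore cannot be told apart from peak density. With the better 50% of each list, the share found in neither lost the call (-1.61). The first 25% of the list reversed the difference in the better-ranked part (-0.230). Leaving out 1 replicate gave 2.54 to 5.13 for both, -5.13 to -2.54 for neither, 1.18 to 1.66 for the better-ranked part, 8.84 to 16.4 for narrow peaks, 8.96 to 10.4 for outer minus central and 4.75 to 14.8 for left minus right. The 553 joined regions were 183 to 480 with 1 replicate's list, and 402 to 797 with joining under 10 kb and under 1 kb. The fullest part held 1.72 times the even number of peaks, and 1.38 times with 10 equal parts. With absent replicate regions restored, 89 of them on III, the 3 shares found in both that were recomputed (chosen after seeing the data) kept direction and call. No paired analysis was possible because the peak lists hold no read counts per sample, and no fit compares ChIP with input. Unknown depth limits each statement on regions seen in 1 list only.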

Other observations

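The first combined-list peak on III ran from 1681 to 1890 and the last from 13763182 to 13763474, and both were found in neither replicate. The length of III in build WS180 was not used here. The 3 longest stretches of III without a peak in any of the 3 lists ran from 9075215 to 9239707 (164 kb), from 6021575 to 6126795 (105 kb) and from 7208157 to 7308852 (101 kb). All 3 lay in the central 50% of the span, at 66.5%, 44.1% and 52.7% of it. The next longest, from 11345571 to 11444673 (99.1 kb), lay in the right outer part.

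Small peaks lay close to the left of 2 of the strong replicate 2 regions that the other lists lack, regions chosen after their positions had been seen. Beside the replicate 2 peak at 2281669 to 2284050 (q = 1.13e-165), replicate 2 listed a further peak at 2281213 to 2281399 (q = 9.72e-06) and replicate 1 a peak of 56 bp at 2281017 to 2281072 (q = 1.52e-06). The nearest combined-list peak was 15332 bp from the strong peak. Beside the replicate 2 peak at 2835628 to 2838590 (q = 5.09e-168), replicate 2 listed a peak of 364 bp at 2834968 to 2835331 (q = 1.24e-15), which is also absent from the other lists.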
